A study of Mus musculus with 4 samples.

Results

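The 4 genes described here, Ly6a, Ly6i, Ly6c2 and Ly6e, are neighbouring members of the Ly6 family measured in colonic macrophages and monocytes, and they are 4 of the 11820 genes in the deposited matrix. They were chosen by symbol, with earlier measured values of these data known: Ly6c2 for its level in monocyte-like cells, and Ly6a and Ly6i for their difference between diets. Their diet differences, and the decline of Ly6c2 from monocyte-like to macrophage-like cells, are therefore given as descriptions without a test.

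Ly6 genes encode small, disulfide-rich proteins that are mostly tethered to the outer cell membrane by a glycosylphosphatidylinositol (GPI) anchor. Ly6C, the product of Ly6c1 and Ly6c2, marks classical monocytes. In the gut these cells lose Ly6C, gain MHC class II and later express complement C1q as they become resident macrophages. Ly6a encodes Sca-1, a marker of mouse haematopoietic stem cells that interferons induce in many cell types, Ly6e is likewise interferon-inducible, and Ly6i is a close relative of Ly6a and Ly6c.

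Single cells came from the colon of male C57/Bl6N mice, 6 to 7 weeks of age, kept for 1 week on chow (replicates 9 and 11) or on a coconut-based high-fat diet (HFD, given as 60% in the labels; replicates 1 and 3), so that n = 2 mice per diet. Live CD45+Lin-CD11b+CD24- cells that carried CD64 or Ly6C were sorted, and each mouse filled 1 well of a droplet-based 3′ assay that tags each RNA molecule with a unique molecular identifier (UMI). Ly6C protein was thus part of the gate, which could keep Ly6c2-expressing cells by design. Each mouse was 1 library. Diet p-values rest on the spread between mice of a diet, and stage p-values on the spread left within mice. The edgeR test also draws each gene's spread towards that of the other genes tested, with prior degrees of freedom of 6.07 to 27.8. The p-values thus lean on other genes as well as on these 4 animals. Cells not annotated by the authors as macrophage or monocyte had been taken out of the matrix.

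The matrix held 5420 cells, 904 to 2002 per mouse, with medians of 3266 to 3926 UMIs per cell and 3824228 to 7947893 UMIs per mouse. Among cell-identity genes, Lyz2 was detected in 99.9% to 100% of cells and Csf1r in 73.1% to 85.5%, whereas Itgam, which encodes the CD11b of the gate, was near 0 (0.323% to 1.04% of cells). Summed B and plasma cell markers (5 of 8 listed were measured) were highest in the cells lowest in C1q and MHC II. They reached 27039.5 and 21779.8 CPM there in chow and 8386.9 and 6374.3 CPM in HFD mice. In the C1q-high range they also differed between diets, at 2987.1 and 3423.7 CPM in chow and 344 and 276 CPM in HFD mice. Endothelial (2 of 7 measured) and T and NK cell markers (9 of 10) reached at most 44.1 and 76.6 CPM in any range defined below. Dendritic cell markers (7 of 7 measured) moved with diet in the C1q-high range, at 53.1 and 59.5 CPM upon chow and 184 and 144 CPM upon HFD, and in the C1q-low MHC II-high range, at 91.3 and 154 CPM against 298 and 188 CPM. Their part in the diet differences of the Ly6 genes in these ranges was not tested. Summed neutrophil markers (4 of 10 measured) reached 309 CPM and epithelial markers (6 of 7) 708 CPM at most, in the MHC II-low range of HFD replicates 1 and 3. In 23 cells over 1% of UMIs belonged to the B and plasma cell markers, 21 of them in chow mice, and in 4 cells over 1% belonged to epithelial markers. Because those cells carried Ly6 transcripts, values without them are given beside the results they moved most, an alternative chosen after seeing the data. The barcodes of 46 cells occurred in more than 1 mouse.

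All 4 genes lie within 156.9 kb of chromosome 15 (GRCm38, GENCODE M21). Ly6e stands at chr15:74955051-74959905 on the plus strand. Ly6i (chr15:74979534-74983430), Ly6a (chr15:74994877-74998031) and Ly6c2 (chr15:75108158-75111970) follow on the minus strand. The coding sequences of Ly6a and Ly6i were 86.4% identical, those of Ly6a and Ly6c2 81.7%, and those of Ly6c2 and Ly6c1 97.7%, while Ly6e shared 54.4% with Ly6a. The last 90 coding bases, the stretch of the reading frame nearest to the sequenced 3′ end, show this closeness. Capitals mark bases that differ from Ly6a in a pairwise alignment of the whole coding sequences:
Ly6a: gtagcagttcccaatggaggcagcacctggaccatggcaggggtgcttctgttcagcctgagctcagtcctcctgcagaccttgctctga
Ly6i: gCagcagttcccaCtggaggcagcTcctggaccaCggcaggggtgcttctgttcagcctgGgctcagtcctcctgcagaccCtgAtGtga
Ly6c2: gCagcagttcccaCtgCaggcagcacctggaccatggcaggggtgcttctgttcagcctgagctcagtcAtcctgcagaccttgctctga
Ly6c1: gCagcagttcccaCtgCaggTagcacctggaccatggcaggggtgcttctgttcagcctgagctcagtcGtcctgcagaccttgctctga
Ly6e: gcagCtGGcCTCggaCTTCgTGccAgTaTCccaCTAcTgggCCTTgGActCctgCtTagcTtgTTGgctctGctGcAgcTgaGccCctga

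In this stretch Ly6i differed from Ly6a at 8 bases, Ly6c2 at 4, Ly6c1 at 5 and Ly6e at 39. The closeness bears on how far reads can be assigned. Of all 31-base words in the final 400 bases of the transcript that the annotation marks as principal, 49.7% of those of Ly6c2 also occurred in transcripts of other genes, compared with 44.3% for Ly6c1, 17.8% for Ly6i, 6.76% for Ly6a and 0.541% for Ly6e. How reads that fit several genes were counted is not given in the sources used here. The level of Ly6c2, and its split from Ly6c1, is therefore uncertain, and shared reads between Ly6a, Ly6i and Ly6c2 are possible. Ly6c1 itself had 53 UMIs in the whole matrix, compared with 7864 for Ly6c2, 6947 for Ly6a, 5312 for Ly6i and 12127 for Ly6e.

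To place the genes along maturation, cells were divided by their summed C1qa, C1qb and C1qc and their summed MHC II transcripts (H2-Aa, H2-Ab1, H2-Eb1, Cd74), at 2355 and 20140 CPM (the UMIs of a gene relative to all UMIs, scaled to the same total), the thresholds that best separated each distribution in 2. These are ranges and not cell types, and 174 cells lay within 0.5 on the log2 scale of the C1q threshold. The C1q-low MHC II-low range held 111 and 106 cells of the chow mice and 318 and 388 of the HFD mice. The C1q-low MHC II-high range held 29 and 47 against 190 and 507, and the C1q-high range 764 and 1849 against 458 and 653. C1q-high cells were kept in 1 range whatever their MHC II. Of them 29 and 107 of the chow mice and 17 and 20 of the HFD mice were not above the MHC II threshold. The C1q-high cells of HFD mice had less C1q, with medians of 13565.1 and 11579.3 CPM compared with 18939 and 19838.4 in chow mice. UMI counts were summed per mouse and range, and a gene was called at an adjusted p below 0.01 (edgeR quasi-likelihood test, Benjamini-Hochberg over all genes tested).

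Ly6a was higher upon HFD at every stage. Its level was 12.6 and 30.3 CPM in chow replicates 9 and 11, and 315 and 308 CPM in HFD replicates 1 and 3 in the C1q-low MHC II-low range. It was 45.6 and 231 CPM upon chow and 957 and 935 CPM upon HFD in the MHC II-high range. Among C1q-high cells it was 31.2 and 62.1 CPM upon chow and 639 and 754 CPM upon HFD. The diets did not overlap in any of the 3 ranges, and the lowest HFD value was 10.1, 4.06 and 10.3 times the highest chow value. The chow values of the MHC II-low range rest on 4 and 9 UMIs, found in 1.8% and 4.72% of cells. Ly6a thus passed the filter of a UMI in at least 5% of cells there through the HFD cells.

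**Figure D1:**
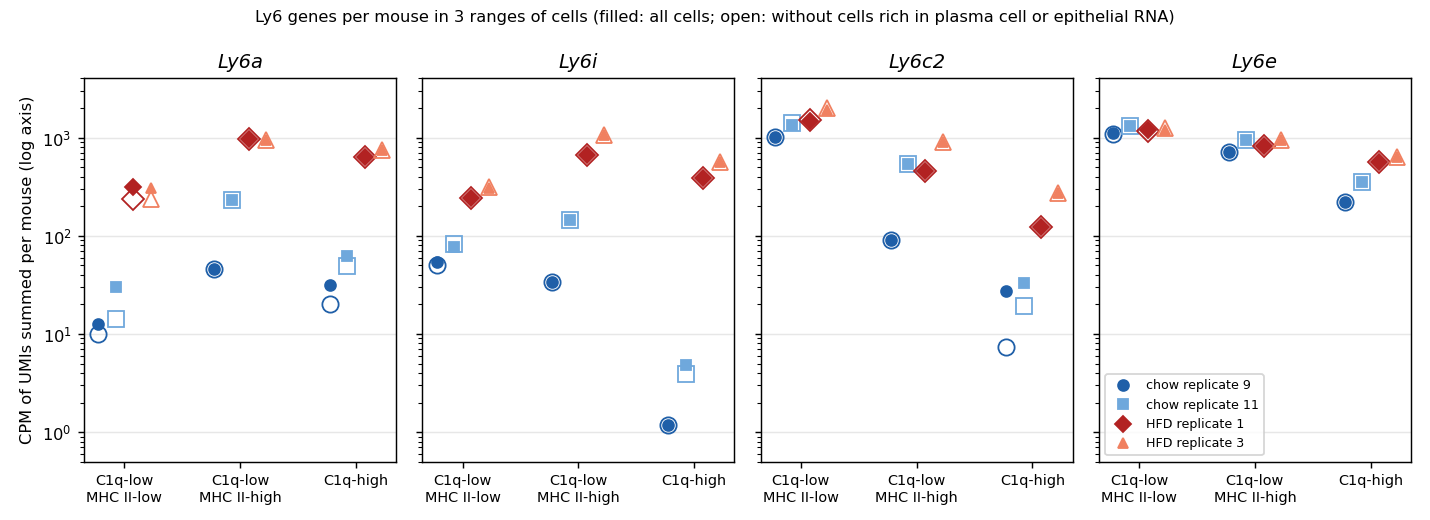
CPM of UMIs summed per mouse (log axis) for Ly6a, Ly6i, Ly6c2 and Ly6e in the 3 ranges, with 1 point per mouse; filled points use all cells and open points leave out cells rich in plasma cell or epithelial RNA. Ly6a and Ly6i of the HFD mice lie above the chow mice in each range, while Ly6e overlaps between diets in both C1q-low ranges.

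On the log2 scale the HFD against chow difference of Ly6a was 3.79 (SE 0.33), 2.61 (SE 0.33) and 3.72 (SE 0.28) in the C1q-low MHC II-low, C1q-low MHC II-high and C1q-high ranges. With both thresholds raised by 1 on the log2 scale, the MHC II-low value was 1.11 and was not called. With both lowered it was 6.47. Plasma cell-rich cells contributed to the chow level. They held 40 of the 115 Ly6a UMIs of chow replicate 9 and 110 of 504 of chow replicate 11, while in the HFD mice 1 such cell each held 96 and 40 UMIs and 2 epithelial-rich cells of HFD replicate 3 held 50. Without plasma cell- and epithelial-rich cells, Ly6a was 10 and 14.3 CPM against 237 and 236 CPM in the MHC II-low range, and 20 and 48.7 CPM against 639 and 754 CPM in the C1q-high range, with differences of 4.21 (SE 0.38) and 4.14 (SE 0.34). The difference in the MHC II-high range ran from 1.94 to 4.32 with a mouse left out. The highest value was that without chow replicate 11, which held 27 of the 31 chow UMIs there.

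Ly6i showed the widest span of diet differences among the 4 genes. It was 53.5 and 77.5 CPM upon chow, and 242 and 308 CPM upon HFD, in the MHC II-low range. With MHC II high and C1q low it was 34.2 and 145 CPM upon chow, and 663 and 1067 CPM upon HFD. Among C1q-high cells it was 1.17 and 4.78 CPM upon chow, from 4 and 36 UMIs, and 386 and 558 CPM upon HFD, from 717 and 1564 UMIs. Chow macrophages with high C1q thus carried almost no Ly6i, and in HFD mice they carried more than the monocyte-like cells of the same mice. The log2 differences were 1.99 (SE 0.27), 3.11 (SE 0.36) and 6.92 (SE 0.38). With a mouse left out they ran from 1.72 to 2.30, from 2.48 to 4.61 and from 6.48 to 8.44. The value of 8.44 was that without chow replicate 11. The C1q-high difference was 7.17 (SE 0.35) without plasma cell- and epithelial-rich cells.

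Ly6c2, the monocyte gene, had the smallest of its 3 diet differences in the range where it was highest. Monocyte-like cells, those low in C1q and MHC II, had 1010.8 and 1357.2 CPM upon chow, and 1479.7 and 1922.1 CPM upon HFD. The diets did not overlap there, and the HFD mean was 1.44 times the chow mean. Cells of the MHC II-high range had 91.3 and 538 CPM upon chow, and 457 and 891 CPM upon HFD, so that the diets overlapped. C1q-high cells had 27.1 and 32.8 CPM upon chow, and 123 and 275 CPM upon HFD. The log2 differences were 0.44 (SE 0.20), 0.96 (SE 0.38) and 2.57 (SE 0.33), and the middle value ranged from 0.24 without chow replicate 9 to 2.85 without chow replicate 11. Plasma cell-rich cells held 68 of the 93 Ly6c2 UMIs of chow replicate 9 and 103 of the 247 of chow replicate 11 in the C1q-high range. Without those cells and the epithelial-rich cells the level there was 7.34 and 19.3 CPM in chow mice, and the difference was 3.65 (SE 0.45).

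Ly6e was the most evenly expressed member. The MHC II-low range had 1102.1 and 1306.7 CPM upon chow, and 1184.5 and 1207.8 CPM upon HFD. The MHC II-high range had 719 and 940 CPM upon chow, and 819 and 934 CPM upon HFD. The C1q-high range had 223 and 355 CPM upon chow, and 569 and 635 CPM upon HFD. The diets overlapped in both C1q-low ranges and not in the C1q-high range, with log2 differences of -0.09 (SE 0.18, 95% interval -0.46 to 0.28), 0.01 (SE 0.20, -0.41 to 0.43) and 0.91 (SE 0.21, 0.44 to 1.38).

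By the call rule, 2, 2 and 3 of the 4 genes were higher upon HFD in the C1q-low MHC II-low, C1q-low MHC II-high and C1q-high ranges. Across all genes tested the called share was 2.16% (95 of 4399), 1.78% (83 of 4661) and 10.5% (531 of 5065). Since the members were selected on this contrast, nothing is read from their count. Without HFD replicate 3, Ly6a (3.64) and Ly6c2 (1.91) no longer passed in the C1q-high range. Like the count, passing or not is no test of the diet difference. In such sums fewer expressing cells and less RNA per cell cannot be told apart, and shares of cells follow further on.

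**Figure D2:**
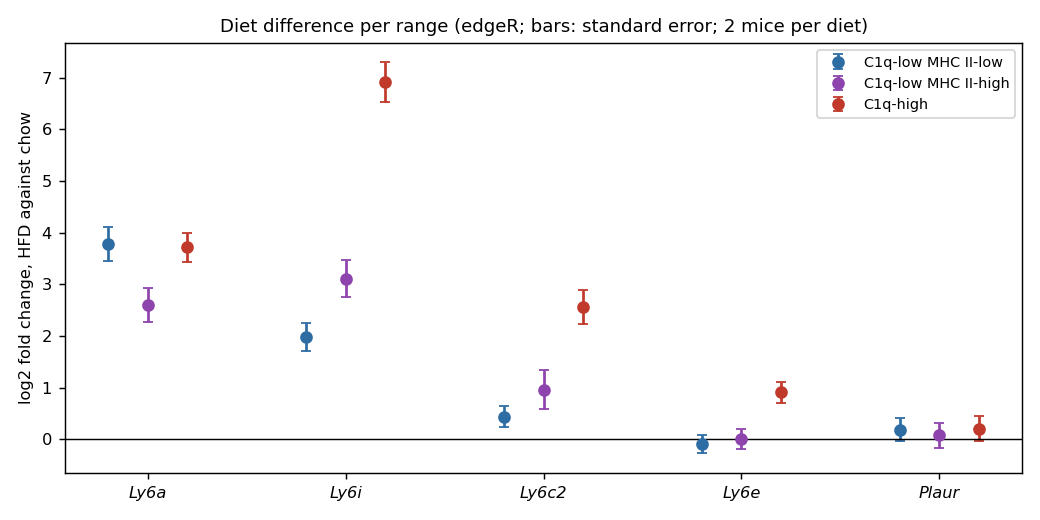
Log2 fold change of HFD against chow (y axis) for the 4 genes and Plaur in the 3 ranges, from edgeR with n = 2 mice per diet; bars are standard errors. Ly6i runs from 1.99 to 6.92 along the ranges, whereas Ly6a stays between 2.61 and 3.79 and Plaur between 0.08 and 0.21.

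The comparison of stages, which paired both ranges within each mouse, was tested for Ly6a and Ly6e as the mean of both diets, since neither was chosen on it. In that mean, Ly6a was lower in the C1q-low MHC II-low than in the C1q-high range, by -1.29 on the log2 scale (SE 0.17, edgeR adjusted p = 1.03e-05). Ly6e was higher there by 1.39 (SE 0.09, edgeR adjusted p = 1.34e-09). Ly6c2 was higher by 4.09 (SE 0.12) and is given as a description. So is Ly6i, whose mean of 1.66 (SE 0.19) averaged opposite directions in chow and HFD mice. By the call rule 4 of 4 members passed here, where 28.7% of 5323 genes did, and nothing is read from their count. The Ly6a value was -1.66 without plasma cell- and epithelial-rich cells (edgeR adjusted p = 3.85e-06). It also depended on where the thresholds lay. With both raised by 1 on the log2 scale, the chow level of the MHC II-low range was 42.8 and 265 CPM and the stage difference 0.40 (edgeR adjusted p = 0.0339). Without plasma cell- and epithelial-rich cells, the same thresholds gave 18.4 and 14.7 CPM and a difference of -1.20 (edgeR adjusted p = 1.95e-05). Over 12 alternative settings the stage difference of Ly6a ran from -2.89 to 0.40.

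Within each diet the stage differences are given without a test, because comparing them between diets restates the diet contrast on which Ly6a and Ly6i were chosen. For Ly6i the C1q-low MHC II-low minus C1q-high difference was 4.18 (SE 0.38) in chow mice and -0.87 (SE 0.14) in HFD mice. The chow value rests on few UMIs in C1q-high cells, and Ly6i passed the filter through the HFD cells. With the C1q-high range limited to cells above 10000 CPM of C1q, the values were 4.58 (SE 0.38) and -0.27 (SE 0.16). This limit and the one on rich cells below were added after seeing the data.

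For Ly6a the difference was -1.31 (SE 0.34) in chow and -1.26 (SE 0.13) in HFD mice, and -0.75 (SE 0.37) and -1.06 (SE 0.14) under the same limit. Ly6e had 1.90 (SE 0.13) and 0.89 (SE 0.12), and Ly6c2 5.12 (SE 0.18) and 3.06 (SE 0.16). Without plasma cell- and epithelial-rich cells the Ly6c2 values were 6.28 and 3.12, those of Ly6a -1.67 and -1.65 and those of Ly6i 4.43 and -0.85. By the call rule 4 of 4 members passed within each diet, against 20.2% of genes in chow and 17.8% in HFD mice, and nothing is read from this count. Under the limit on C1q, Ly6a in chow mice and Ly6i in HFD mice did not pass.

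The difference of the diet effect between these ranges was fitted as an interaction and is given without a test, because the genes had been chosen on the diet contrast. The diet effect was smaller in the C1q-low MHC II-low than in the C1q-high range by -5.05 for Ly6i (SE 0.41), by -2.05 for Ly6c2 (SE 0.23) and by -1.01 for Ly6e (SE 0.17). For Ly6a the difference was 0.05 (SE 0.38, 95% interval -0.75 to 0.86). By the call rule 3 of 4 members passed, where 1.80% of 5323 genes did, and nothing is read from their count. Ly6i had only 40 chow UMIs in the C1q-high range and passed the filter there through the HFD cells. The Ly6e value did not pass without chow replicate 9 (-0.76), HFD replicate 1 (-1.05) or HFD replicate 3 (-0.98). For Ly6a, raised thresholds gave -2.84, and -0.11 once plasma cell- and epithelial-rich cells were also left out. Over 12 alternative settings its value ran from -2.84 to 2.73, and from -0.06 to 0.27 with a mouse left out.

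The genes were next followed in finer steps of C1q, leaving out the plasma cell- and epithelial-rich cells. Ly6c2 was lowest in the cells richest in C1q in both diets. In cells with up to 300 CPM of C1q it was 896 and 884 CPM upon chow, and 1098.4 and 1531.7 CPM upon HFD. In cells above 10000 CPM of C1q it was 5.62 and 10.3 CPM upon chow, and 57.1 and 149 CPM upon HFD. The HFD mice were thus above the chow mice at the C1q-rich end. Between 1000 and 3000 CPM of C1q they were not, with 905 and 1022 CPM upon chow and 567 and 905 CPM upon HFD.

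Ly6i, like Ly6c2, was near its floor in C1q-rich cells of chow mice, but not in those of HFD mice. It was 46 and 50.5 CPM in the lowest and 0.937 and 3.24 CPM in the highest C1q step upon chow. Upon HFD it was 473 and 824 CPM in the lowest step, 616 and 927 CPM between 3000 and 10000 CPM of C1q, and 258 and 350 CPM in the highest. In each of these steps the HFD mice were above the chow mice, although C1q was not matched within a step.

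Ly6a was highest at intermediate C1q in both HFD mice and in chow replicate 9. Between 3000 and 10000 CPM of C1q it was 102 and 103 CPM upon chow, and 868 and 936 CPM upon HFD. In chow replicate 11 the highest value was 122 CPM, from 16 UMIs, between 300 and 1000 CPM of C1q. Above 10000 CPM it was 15 and 46.3 CPM upon chow, and 535 and 660 CPM upon HFD. With plasma cell- and epithelial-rich cells kept, the chow values between 3000 and 10000 CPM were 272 and 245 CPM. Ly6e was also lower in C1q-rich cells, going from 1034 and 960 CPM to 217 and 344 CPM upon chow, and from 1007.3 and 1057.2 CPM to 529 and 600 CPM upon HFD.

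**Figure D3:**
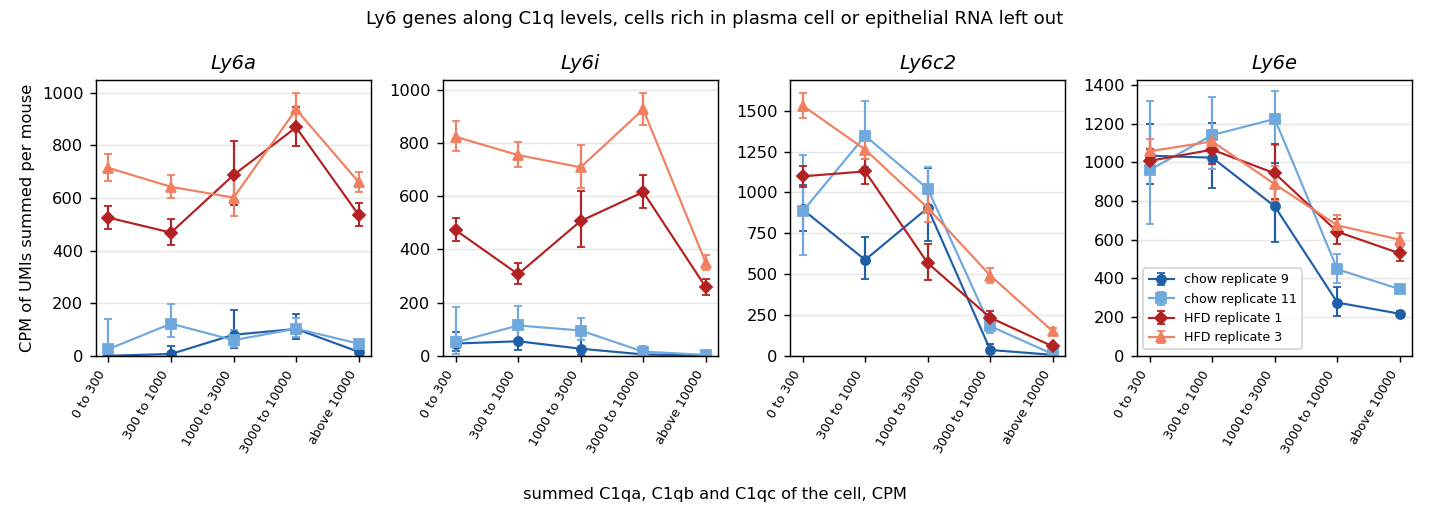
CPM of UMIs summed per mouse (y axis) in steps of C1q level of the cell (x axis, CPM) for each gene, with 1 line per mouse and exact 95% Poisson intervals that cover counting error only; cells rich in plasma cell or epithelial RNA are left out. Ly6c2 is lowest above 10000 CPM of C1q in all 4 mice, while Ly6a and Ly6i of HFD mice stay above 200 CPM throughout.

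With the C1q-high range limited to cells above 10000 CPM of C1q, so that the lower C1q of HFD macrophages weighed less, the log2 diet differences were 4.09 (SE 0.38) for Ly6a, 6.79 (SE 0.34) for Ly6i, 3.42 (SE 0.41) for Ly6c2 and 0.90 (SE 0.20) for Ly6e. Free RNA of broken cells may be captured in any droplet, so the monocyte genes Plac8 and Chil3 were set beside Ly6c2. Above 10000 CPM of C1q, HFD replicates 1 and 3 had 15.8 and 6.91 Plac8 UMIs and 4 and 2.43 Chil3 UMIs for each Ly6c2 UMI, compared with 8.99 and 6.1, and 6.85 and 5.23, in the C1q-low MHC II-low range of the same mice. Ly6a had 9.37 and 4.43 UMIs for each Ly6c2 UMI above 10000 CPM of C1q and 0.213 and 0.16 in the MHC II-low range. Ly6i had 4.52 and 2.35 against 0.164 and 0.16. The part of released RNA in the Ly6c2 of C1q-rich cells was not tested.

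Along MHC II, within C1q-low cells, Ly6a was higher and Ly6c2 lower in the highest than in the lowest step upon HFD. Only the step from 3000 to 10000 CPM of MHC II held at least 20 cells in every mouse. There Ly6a was 0 and 12.7 CPM upon chow against 248 and 203 CPM upon HFD, and Ly6i 67.6 and 97.1 CPM against 328 and 240 CPM, whereas Ly6c2 overlapped between diets, at 1126 and 1545.4 CPM against 1386.5 and 2114.6 CPM. The diets thus did not overlap in Ly6a and Ly6i in this step, where C1q was not matched. Median C1q of the whole C1q-low MHC II-low range was 300 and 1064.7 CPM upon chow and 208 and 371 CPM upon HFD. The other steps are given for the HFD mice. Ly6a was 131 and 152 CPM in cells with up to 3000 CPM of MHC II, 481 and 454 CPM between 10000 and 30000, and 1211.9 and 1100.4 CPM above 60000. Ly6c2 was 1541 and 1648 CPM in the lowest step and 311 and 599 CPM in the highest. In HFD replicate 3 it first rose, with its peak of 2114.6 CPM between 3000 and 10000. Ly6i was 116 and 184 CPM in the lowest step and 606 and 1238.9 CPM in the highest, with the peak of HFD replicate 1 (795 CPM) a step earlier. Ly6e varied least, from 1114.9 and 1216 CPM to 773 and 868 CPM.

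**Figure D4:**
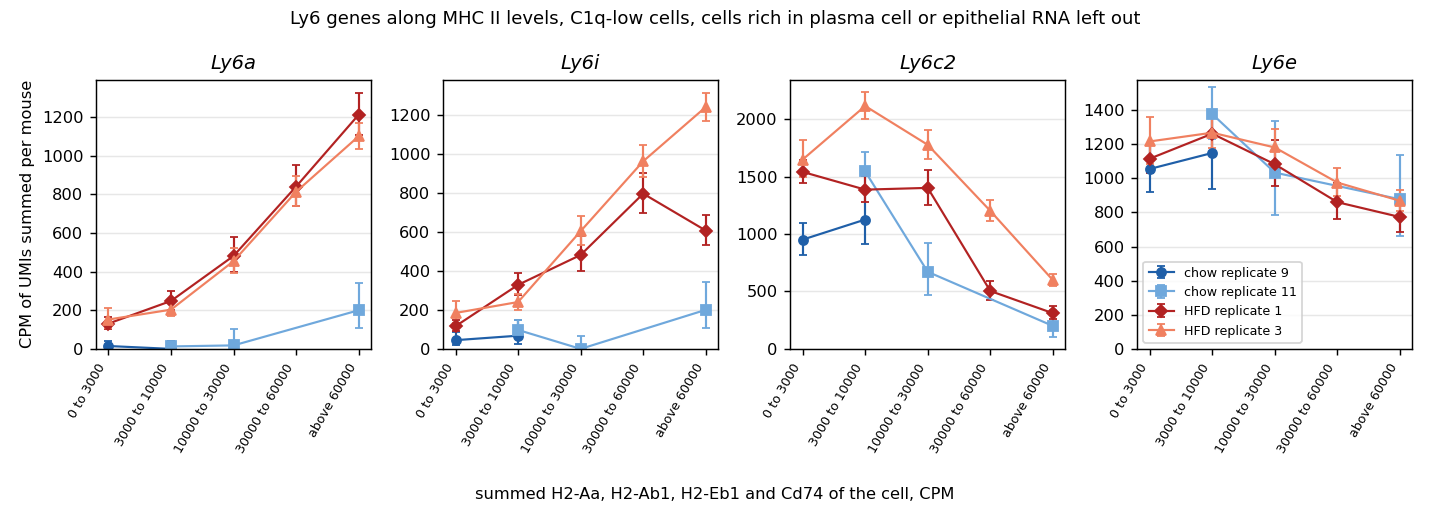
CPM of UMIs summed per mouse (y axis) in steps of MHC II level of the cell (x axis, CPM) among C1q-low cells, with exact 95% Poisson intervals that cover counting error only; steps with fewer than 20 cells of a mouse are not drawn, and cells rich in plasma cell or epithelial RNA are left out. In the HFD mice Ly6a runs from 131 and 152 CPM to 1211.9 and 1100.4 CPM, and Ly6c2 from 1541 and 1648 CPM to 311 and 599 CPM.

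The share of cells with at least 1 UMI was compared after thinning every cell to 1500 UMIs, with exact binomial intervals that cover counting error only. Cells with fewer UMIs were left out, in the C1q-high range 42 and 169 of the chow mice and 59 and 62 of the HFD mice. For Ly6a in that range the share was 1.8% (95% interval 0.962% to 3.06%) and 6.07% (4.98% to 7.32%) in chow mice, and 36.3% (31.6% to 41.3%) and 51.1% (47% to 55.2%) in HFD mice. Ly6i was found in 0.277% and 0.476% of the same chow cells and in 24.8% and 37.2% of the HFD cells. The shares with a UMI of either gene did not overlap between diets. A cell without a UMI may still express the gene at this depth, and a UMI may come from free RNA of the same well. Before thinning, the Ly6a shares were 3.14% and 10.9% upon chow and 48.3% and 68.3% upon HFD. Cells not annotated as macrophage or monocyte had been taken out, although 23 cells rich in plasma cell RNA and 4 rich in epithelial RNA remained. The background of free RNA was not estimated. Each mouse was its own well, so chow shares give no background for HFD wells. In this range the thinned Ly6i shares of chow cells were the lowest seen. Unthinned they were 0.524% and 1.35%.

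Among monocyte-like cells low in C1q and MHC II, Ly6c2 was detected in 48.4% and 58% of chow cells and in 77.3% and 77.4% of HFD cells. Ly6a was found there in 1.05% and 3.41% of chow cells and 21.6% and 21.1% of HFD cells. Ly6c2 was found in 0.831% and 1.96% of C1q-high chow cells and in 13.5% and 22.3% of C1q-high HFD cells. Without plasma cell- and epithelial-rich cells the chow shares there were 0.695% and 1.62% for Ly6c2 and 1.53% and 5.64% for Ly6a, and the HFD shares were the same. The shares of Ly6e in the MHC II-low range were alike, at 78.9% and 75% upon chow and 78.8% and 76.2% upon HFD.

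Some cells carried UMIs of both Ly6a and Ly6c2, and how often differed between ranges. Ly6a, in the C1q-low MHC II-low range of HFD replicates 1 and 3, was detected in 22.8% and 20.2% of cells with a Ly6c2 UMI and in 17.5% and 24% of cells without, with overlapping 95% intervals (17.4% to 29% against 9.05% to 29.1%, and 15.5% to 25.7% against 14.9% to 35.3%). The shares without a Ly6c2 UMI were 16.4% and 20.8% when plasma cell- and epithelial-rich cells were left out. In the MHC II-high range, without rich cells, Ly6a was found in 44.4% and 48.2% of cells with a Ly6c2 UMI and in 52.3% and 51% of cells without, and over all ranges in 30% and 39.3% against 36.6% and 46.2%. Among C1q-high cells of the same mice Ly6a was found in 44.4% and 61.4% of cells with a Ly6c2 UMI and in 35.1% and 48.1% of cells without. The 95% intervals overlapped there too (30.9% to 58.6% against 30% to 40.4%, and 52.5% to 69.7% against 43.5% to 52.8%). Ly6a was also more frequent in C1q-high cells with an Ly6i UMI, at 48.5% and 57.7%, than in those without, at 32.3% and 47.2%, with intervals that overlapped in HFD replicate 3. Cells of 1 mouse are not replicates, and these shares are descriptions.

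The make-up of the family's UMIs changed with stage and diet. Ly6c2 and Ly6e together made up most UMIs of the MHC II-low range in every mouse, and Ly6a made up 0.578% and 1.09% upon chow and 9.77% and 8.21% upon HFD. These were 0.465% and 0.507%, and 7.51% and 6.22%, without plasma cell- and epithelial-rich cells. Of C1q-high cells, Ly6e made up 78.9% and 78.1% upon chow and 33.1% and 28.6% upon HFD. There Ly6a made up 11.1% and 13.7% upon chow and 37.2% and 33.9% upon HFD, and Ly6i 0.414% and 1.05% against 22.5% and 25.1%. Leaving out the rich cells, the chow mice had 88.5% and 83% Ly6e, 8.03% and 11.5% Ly6a and 2.95% and 4.58% Ly6c2, the last instead of 9.62% and 7.21%, and the HFD values were the same. The 4 genes together accounted for 0.282 and 0.455 of each 1000 UMIs in C1q-high cells of chow mice, and for 1.72 and 2.22 in those of HFD mice.

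**Figure D5:**
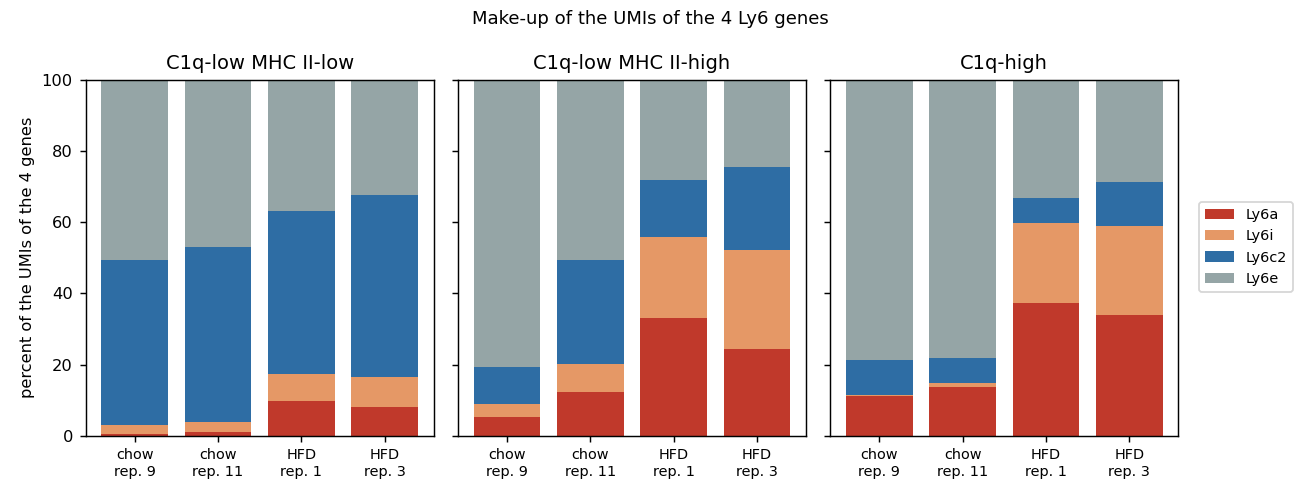
Percent of the UMIs of the 4 genes that each gene makes up (y axis), with 1 bar per mouse in each of the 3 ranges. Ly6e fills 78.9% and 78.1% of the chow bars in the C1q-high range and 33.1% and 28.6% of the HFD bars.

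The diets also differed in how many cells each range held, so levels were recomputed with the same weight of each range in every mouse (18.9%, 14.5% and 66.6%). With equal weights Ly6c2 was 199 and 322 CPM upon chow and 423 and 703 CPM upon HFD, whereas the plain mean over cells was 132 and 99.9 CPM against 617 and 913 CPM. The Ly6c2 values of the diets were thus closer with equal weights. Ly6a was 26.9 and 70.6 CPM against 565 and 640 CPM with equal weights, close to its plain mean of 27.8 and 58.3 CPM against 537 and 628 CPM. Ly6i was 15 and 31.8 CPM against 364 and 613 CPM, and Ly6e 455 and 596 CPM against 700 and 771 CPM. With equal weights and no plasma cell- or epithelial-rich cells, Ly6a was 22.7 and 64.1 CPM against 562 and 637 CPM.

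Of 48 listed genes of the Ly6/uPAR family, 11 were measured, and 5 passed the filter on low counts in each range, namely the 4 members and Plaur. Plaur, the urokinase receptor that focuses plasminogen activation on the cell surface, was not called between diets (0.19, 0.08 and 0.21; adjusted p = 0.78, 0.928 and 0.59 by edgeR). It was higher in the MHC II-low than in the C1q-high range by 0.43 (SE 0.09, edgeR adjusted p = 0.000972). Ly6c1 had 2 and 2 UMIs upon chow and 17 and 32 upon HFD in all cells, too few for the test.

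Ly6d, a lymphoid lineage gene, had 67 and 89 UMIs in chow mice and 3 and 32 in HFD mice, and 59, 85, 0 and 28 of these lay in plasma cell-rich cells. Lypd8, a gene of colonic epithelium, had 181 UMIs in HFD replicate 3, of which 149 lay in 2 epithelial-rich cells, and 0 to 14 in the other mice. Lynx1, Ly6g6d and Cd59a had at most 15 UMIs in any mouse. Within 500 kb of the outermost members 56 genes are annotated, 29 of them protein-coding, and 10 were measured. The 3 genes outside the family list were Gm39556 (55 UMIs), Gm8000 (20 UMIs) and I830127L07Rik (1104 UMIs). Gm8000 and I830127L07Rik are annotated pseudogenes, and I830127L07Rik shares 31-base words with Ly6a, Ly6i, Ly6c2 and Ly6c1. I830127L07Rik was not called between diets in the C1q-low ranges (0.28 and -0.16, edgeR adjusted p = 0.566 and 0.951) and did not pass the filter among C1q-high cells.

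The genes most like each member over the 12 sums of mice and ranges were named by Pearson's r of log2(CPM + 1) among 4034 genes, as a description, since sums of 1 mouse share a library. Ly6a was most like Cfb, complement factor B (r = 0.965), the interferon-gamma-induced chemokine gene Cxcl9 (0.960), Slamf8 (0.951), AA467197 (0.947) and Ndufa9 (0.944). Ly6i was most like Cox6a1 (0.982), Ifi30 (0.958), Atp5b (0.957), Psma2 (0.955) and Mrpl36 (0.950). Ly6c2 was most like Hsd17b10 (0.983), the monocyte gene Chil3 (0.980), Sp100 (0.974), Fgr (0.973) and Capns1 (0.971), and Ly6e like Ifitm3 (0.975), Mcemp1 (0.971), Clec4e (0.970), Glipr2 (0.970) and Plac8 (0.964). Among the members r was 0.94 for Ly6c2 with Ly6e and 0.80 for Ly6a with Ly6i. It was 0.68 for Ly6i with Ly6c2, 0.67 for Ly6i with Ly6e, 0.23 for Ly6a with Ly6c2 and 0.16 for Ly6a with Ly6e. Ly6a and Ly6i were both chosen for their diet difference and 6 of the 12 sums are of HFD mice, so their r partly restates that choice.

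Interferon-induced genes were listed beside the members, with no member in either list. These lists, and that of the GPI anchor below, were chosen with earlier results of these data known. Their calls and adjusted p-values are therefore given as descriptions. Of 31 listed interferon-gamma-induced genes, 15 of 18 tested were higher upon HFD in the MHC II-low range, 6 of 18 in the MHC II-high range and 9 of 15 in the C1q-high range, and none was lower (edgeR, with 0 lower at an unadjusted p under 0.05 and 0 by DESeq2). DESeq2 called 10, 5 and 11 higher, and the likelihood-ratio test 15, 11 and 12. Over all genes tested 2.16%, 1.78% and 10.5% were called in either direction. The median log2 difference of the list was 2.48, 1.61 and 1.52, beside -0.01, 0.04 and -0.02 over all genes tested. Gbp2, a guanylate-binding GTPase, rose by 4.17, 3.37 and 4.25 (edgeR adjusted p = 1.16e-11, 4.54e-07 and 3.13e-05). Cxcl9 rose by 6.16, 3.29 and 5.47 (edgeR adjusted p = 1.03e-13, 1.94e-07 and 0.000104), and Psmb9, an immunoproteasome subunit, by 1.45, 1.23 and 1.30 (edgeR adjusted p = 5.24e-05, 0.00291 and 0.00113). Gbp3 rose in the MHC II-low range (2.48, edgeR adjusted p = 4.31e-08), with values of 1.01 and 0.59 in the others.

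Of 35 type I interferon-induced genes, 4 of 28, 4 of 26 and 9 of 20 tested were higher upon HFD in the same ranges, with medians of 0.51, 0.85 and 0.94, beside the same 2.16%, 1.78% and 10.5% called and medians of -0.01, 0.04 and -0.02 over all genes. None was lower by edgeR or DESeq2, with 1, 1 and 0 lower at an unadjusted p under 0.05, and DESeq2 called 1, 2 and 10 higher. Ms4a4c had values of 0.28 and 0.41 in the C1q-low ranges and rose by 2.50 in the C1q-high range (edgeR adjusted p = 6.14e-05), and Ifi27l2a had values of 0.02 and -0.31 and rose by 1.32 (edgeR adjusted p = 0.000614). Bst2 (-0.24, -0.07 and -0.29) and Ifi204 (0.72, 0.33 and 0.62) did not pass the test in any range. Across stages 23 of 28 were higher and 1 lower in the MHC II-low than in the C1q-high range, and 4 of 18 interferon-gamma-induced genes were higher and 2 lower (edgeR). Of all 5323 genes 28.7% were called there, 801 higher and 725 lower, and the median difference was 1.46 for the type I list, 0.18 for the interferon-gamma list and -0.00 for all genes.

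Genes for making and attaching the GPI anchor, which the Ly6 proteins need, were not called between diets by edgeR. Of 32 listed genes, 0 of 8, 0 of 9 and 0 of 10 tested passed in the 3 ranges with edgeR, with medians of 0.05, 0.37 and 0.13. Over all genes tested 2.16%, 1.78% and 10.5% were called, with medians of -0.01, 0.04 and -0.02, so that 0 calls in a list of this size is near the background. At an unadjusted p under 0.05 there were 0, 0 and 2 genes, and DESeq2 called 0. The likelihood-ratio test called 1 lower in the C1q-high range. Dpm3 (0.45, -0.37 and 0.23), Pgap2 (0.03, 0.37 and 0.24), Pigx (-0.67, 0.39 and -0.18) and Pigk (0.06, 1.39 and 0.35) had the highest mean level of the list.

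Cells with and without a Ly6a UMI were set side by side within range and mouse. Among MHC II-low cells of HFD replicate 1, 60 cells with Ly6a had 8713.6 CPM of interferon-gamma-induced genes and 7059.6 CPM of MHC II, compared with 4482.7 and 4171.2 CPM in 218 cells without. In HFD replicate 3, 70 cells with Ly6a had 7027.3 and 7510.3 CPM, compared with 6727.6 and 6206.6 CPM in 262 cells without. Both quantities were higher in cells with Ly6a in both mice, by little for the interferon-gamma-induced genes of HFD replicate 3. Ly6c2 was close in both kinds of cells, at 1477.1 and 1842.8 CPM with Ly6a and 1509.7 and 1999.7 CPM without. Among C1q-high cells Ly6i was higher in cells with Ly6a, at 544 and 719 CPM, than in cells without, at 297 and 380 CPM. C1q was lower there in cells with Ly6a, at 13791.9 and 13200.4 CPM compared with 16045.1 and 15130.5 CPM. In the MHC II-high range of the same mice Ly6i was close, at 679 and 1058.4 CPM with Ly6a and 678 and 1085.4 CPM without. In the MHC II-low range it was 389 and 332 CPM with Ly6a and 205 and 290 CPM without.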

How the data were processed

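Single-cell RNA-sequencing of colonic macrophages and monocytes from 4 mice was analysed. Per the submitters' processing notes and the study's methods, kallisto 0.46.0 assigned the reads to transcripts of Ensembl release 97 and bustools 0.39.2 turned them into a matrix. The authors filtered genes and cells, kept macrophages and monocytes, and deposited the UMI counts as raw whole numbers. Each cell's name gave its mouse. Symbols and coordinates came from GENCODE M21 (GRCm38), which held 11819 of 11820 identifiers, and sequences from its transcripts. The members and the gene lists were chosen with earlier results of these data known.

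C1q and MHC II ranges came from Otsu thresholds on log2(CPM + 100) per cell. Counts were summed per mouse and range and tested with edgeR (version 4.0.16; TMM, quasi-likelihood test, FDR of 1%) in genes above 1 CPM in at least 2 sums and with a UMI in at least 5% of cells. Diet was compared within each range, and the stage contrast and its interaction with diet carried a term for each mouse. Standard errors are the log2 fold change divided by the square root of the F statistic. Alternatives were the likelihood-ratio test, DESeq2 (version 1.42.0), no filter, moved thresholds, removal of 41 Scrublet doublets (0.756%; scanpy version 1.11.5), which were otherwise kept, each mouse left out, and those added after seeing the data. The fits were tested on simulated data. A two-sided exact permutation test of 2 against 2 mice has 0.33 as its smallest p and was not used.

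The genes named are the members, every other measured Ly6/uPAR gene, neighbours within 500 kb, the 5 genes most correlated with each member, and the 4 genes with the highest mean level of each list. Plac8, Chil3 and the cell-identity genes were named outside this rule, after their values were seen.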

Additional observations from a re-analysis of the deposited data

Results flagged for a closer look

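In 3 members the fitted diet effect differed between the C1q-low MHC II-low and the C1q-high range (difference of log2 fold changes, 4 mice). These differences are given as descriptions, because the genes were chosen on the diet contrast and no independent mice were at hand to test them. For Ly6i the difference was -5.05 (SE 0.41), with no overlap of the diets in either range but only 40 chow UMIs in the C1q-high range. For Ly6c2 it was -2.05 (SE 0.23), and -3.16 without plasma cell- and epithelial-rich cells. For Ly6e it was -1.01 (SE 0.17), with the diets overlapping in the MHC II-low range. Groups of 2 mice are too small for a check of single outlying samples.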

How the results depend on the processing

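No paired analysis was possible because the diet groups share no replicate numbers, and the stage contrast and the interaction already carry a term for each mouse. In the C1q-low MHC II-low range 95 genes were called, 47 by DESeq2, 21 with lowered thresholds and 54 to 163 with a mouse left out. Without plasma cell- and epithelial-rich cells the count was 63 with raised and 15 with lowered thresholds. In the MHC II-high range 83 genes were called, 178 by the likelihood-ratio test, 191 without a filter, 46 with lowered thresholds and 37 to 45 with a mouse left out. In the C1q-high range 531 were called, 926 by the likelihood-ratio test, 912 without a filter, 318 above 10000 CPM of C1q and 15 to 776 with a mouse left out, the lowest without HFD replicate 3 and 100 without HFD replicate 1. The stage contrast called 1526, and 926 to 1373 with a mouse left out. The interaction called 96, 195 by the likelihood-ratio test, 180 without a filter, 61 with lowered thresholds, 40 above 10000 CPM of C1q and 41 to 102 with a mouse left out. The causes were not tested.

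Raised thresholds turned the Ly6a stage contrast to 0.40 and its interaction to -2.84. They were -1.20 and -0.11 without plasma cell- and epithelial-rich cells. Over 12 alternative settings the stage contrast ran from -2.89 to 0.40 and the interaction from -2.84 to 2.73. The Ly6a diet difference of the MHC II-low range was 1.11 with raised and 6.47 with lowered thresholds, the last from 0 and 1 chow UMIs. Thinning to 1000 UMIs turned the diet difference of the Ly6e share in the MHC II-high range to -3.85 percentage points. Of the other values of single genes and shares, 19 moved beyond the spread between mice and 253 did not. The Ly6e interaction lost the threshold in 5 alternatives, among them -0.95 with lowered thresholds and -0.94 above 10000 CPM of C1q. Among the diet differences, given as descriptions, Ly6a in the MHC II-low range with raised thresholds (1.11), Ly6i there with lowered thresholds (1.71, and 1.70 without the rich cells), and Ly6a (3.64) and Ly6c2 (1.91) in the C1q-high range without HFD replicate 3 no longer passed. Ly6c2 passed in the MHC II-high range without a filter (1.23), and Ly6e in the C1q-high range in 4 alternatives (0.91 to 1.26). These gains and losses are no test of the diet differences, on which the members were chosen. With 2 mice per diet, and 13 Ly6a UMIs in MHC II-low chow cells, low chow levels are imprecise.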
